A study of Homo sapiens with 6 samples.

Results

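TGF-beta, activin and BMP signalling was followed through 42 genes of 60612 in the count table: 13 genes of ligands and their processing, 10 receptors, 8 SMADs, 4 ID genes, 4 antagonists that act at or outside the cell surface, and 3 intracellular inhibitors. The genes were taken by symbol from a list ordered by role, whose rule names genes and no measured value but which was chosen with earlier results of these data known, and all 42 were found in the table. The cells were U87, an established human glioblastoma line grown in DMEM with serum. The 3 control libraries (NC) came from cells that had received a lentiviral Scramble shRNA, and the 3 shPRMT6 libraries came from cells that had received a lentiviral shRNA against PRMT6, an arginine methyltransferase that modifies histone H3. Per the study's methods the cells were selected with puromycin and the replicates were independent, and both groups had therefore been infected and selected. Which PRMT6 shRNA was sequenced, and whether it was the same in all 3 libraries, is not given in the sources used here. The titles number the libraries shRNA-1 to shRNA-3, and the controls NC-1 to NC-3 in the same way. The paper lists 3 PRMT6 shRNAs and does not name all of them for its U87 growth assay. The libraries were read as replicates of 1 group. The use of 1 cell line with residual PRMT6 limits what the groups can stand for.

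Ligands of this family bind pairs of type I and type II serine/threonine kinase receptors, and the type I receptor then phosphorylates receptor SMADs, which enter the nucleus with SMAD4. TGF-beta and activin receptors mainly act through SMAD2 and SMAD3, while BMP receptors mainly act through SMAD1, SMAD5 and SMAD9, which switch on ID genes. In glioblastoma TGF-beta is known for its link with invasion and immune suppression, and BMPs are known for driving glioma stem cells towards differentiation.

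The total counts ran from 56388161 to 75887696 in NC and from 61805330 to 67630740 in shPRMT6. PRMT6 was lower in every shPRMT6 library than in every NC library (log2 fold change -0.87, SE 0.187; edgeR quasi-likelihood test, Benjamini-Hochberg adjusted p = 0.0225). This call was lost without NC replicate 1 (-0.77, adjusted p = 0.0613), without shPRMT6 replicate 1 (-0.73, 0.0588) and without shPRMT6 replicate 2 (-0.89, 0.0713). Of the glioma markers, VIM, a mesenchymal filament gene, was abundant (mean 1299 FPKM in NC). S100A6, CD44, NES, CHI3L1 and OLIG2 had means of 709, 47.8, 6.18, 0.869 and 0.656 FPKM in NC. GFAP and SOX2 lay at or below 0.14 FPKM, and S100B was listed at 0 counts in all libraries. The 4 leukocyte markers had at most 4 counts in a library, whereas endothelial markers reached 331 counts, epithelial markers 236 and neuronal markers 1508. Among the 9 glioma markers read, CHI3L1 was the 1 called, with a higher level (log2 fold change 1.62), and among 9 endothelial, epithelial and neuronal markers CDH1 was the 1 called, with 31, 58 and 38 counts in NC and 16, 4 and 7 in shPRMT6. Their part in the changes given here was not tested. In these bulk libraries fewer cells of a type and less RNA per cell cannot be told apart.

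Levels per length are given as FPKM, and comparisons between groups use CPM (counts scaled to library size) after TMM scaling. A gene is called where its adjusted p is under 0.05 over the 18106 genes that passed the filter on low counts, and 38 of the 42 members passed it. INHBB, BMP4, GDF6 and NOG were too low to be tested. Of the 38 tested members, 5 were called higher in shPRMT6 (TGFB3, BMP2, TGFBR2, BAMBI and SMURF2) and 6 were called lower (GDF5, GDF11, ACVR1B, BMPR1A, SMAD3 and GREM1). The 11 calls made up 28.9% of the tested members, against 18.6% of all tested genes, of which 9.51% were called higher and 9.06% lower. The median log2 fold change was -0.01 in the members and -0.01 in all tested genes, and the median absolute change was 0.25 in the members against 0.31. The members thus moved in both directions, and the median size of their changes was not above that of the table as a whole. This median does not describe the larger changes, which are counted further below. Among the called members the larger changes lay in genes of low abundance (BAMBI, GDF5 and TGFB3), while the abundant GREM1 and TGFBR2 moved by less than 0.3 on the log2 scale. Small changes of low genes could hardly be called, since the SE was 0.355 for BAMBI and 0.371 for GDF5 against 0.0485 for TGFBR2.

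**Figure D1:**
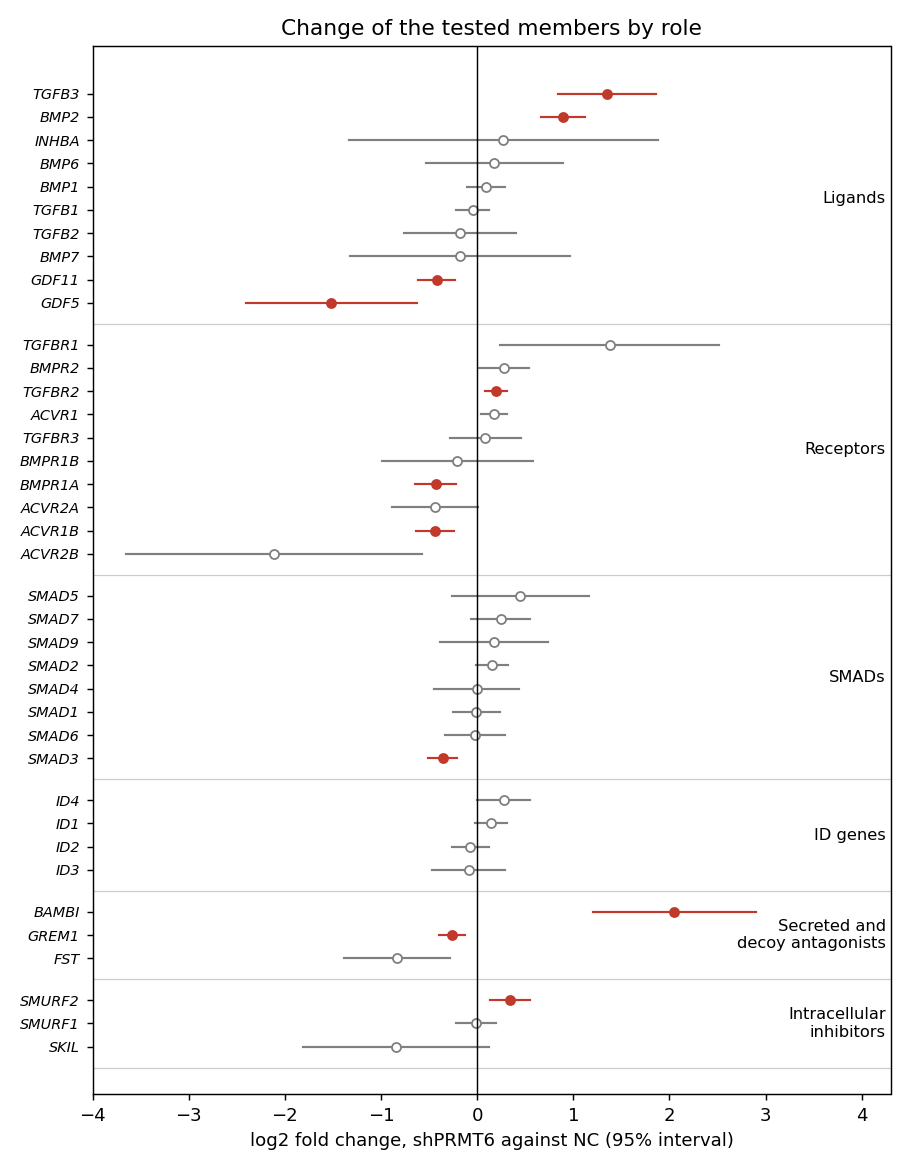
Log2 fold change of the 38 tested members (x axis, shPRMT6 against NC, with the 95% interval), grouped by role and sorted within each role. Filled red points are the 11 members past an adjusted p of 0.05, 5 to the right of 0 and 6 to the left, and open points are the others.

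The promoters of called members were read in the RefSeq table for GRCh38.p14, which matched 37 of the 42 members, 10 of them called. A pair of short motifs bound by SMADs was searched in the 250 bases before each listed start, GGCGCC, whose reverse complement is the same, and CAGAC, read on both strands and thus also as GTCTG. The first of them, GGCGCC, was found in 15 of 65 windows of members (23.1%) and in 16.4% of all 35116 windows. CAGAC was found in 25 of 65 windows of members (38.5%) and in 38.0% of all windows. These shares are by window, and a gene can have several windows. By gene, GGCGCC was found in 13 of 37 members and CAGAC in 18 of 37. The share of all genes with a match in any window was not taken, so counts by gene have no background here. Of the 10 called members, 4 had GGCGCC (ACVR1B, BAMBI, GREM1 and SMAD3). CAGAC was found in 6 of the 10 (ACVR1B, BAMBI, GDF5, GREM1, SMAD3 and TGFB3). A match describes the letters of the window only.

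The stretches that hold these matches are shown for BAMBI and TGFB3, the 2 called members with the largest rises, and for ACVR1B, a receptor that fell, as far as they lie outside annotated exons and before the first listed start. Capitals mark the matches to these motifs, no matches overlap, and each stretch is written 5′ to 3′ on the strand of its gene. The BAMBI stretch, chr10:28677302-28677341 (plus strand), lies 219 to 180 bases before the start. The TGFB3 stretch, chr14:75983130-75983261 (minus strand), lies 250 to 119 bases before the start. The ACVR1B stretch, chr12:51951529-51951636 (plus strand), lies 170 to 63 bases before the start. It holds GGCGCC only, since the CAGAC match of ACVR1B lies in the window of its other listed start.
BAMBI: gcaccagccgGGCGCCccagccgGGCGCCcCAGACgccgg
TGFB3: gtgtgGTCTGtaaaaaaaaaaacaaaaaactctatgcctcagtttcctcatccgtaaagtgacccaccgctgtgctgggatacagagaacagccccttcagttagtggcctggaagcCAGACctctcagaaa
ACVR1B: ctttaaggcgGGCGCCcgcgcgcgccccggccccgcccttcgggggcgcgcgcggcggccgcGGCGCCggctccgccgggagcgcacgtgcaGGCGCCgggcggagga

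By level per length, TGFB1 (71.6 FPKM in NC), ID1 (63.0), TGFBR2 (31.6), GREM1 (19.8), ACVR1 (14.7) and ID2 (14.6) were the 6 most abundant members. Among the ligands TGFB1 stood far above the rest, and the next ligand gene, BMP1, was at 5.36 FPKM. The least abundant were BMP4, GDF6 and NOG, none of which had more than 7 counts in a library. A gene with 0 counts may still have up to 3 counts, or 0.0395 to 0.0532 CPM depending on the library, and this limit covers counting error only.

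**Figure D2:**
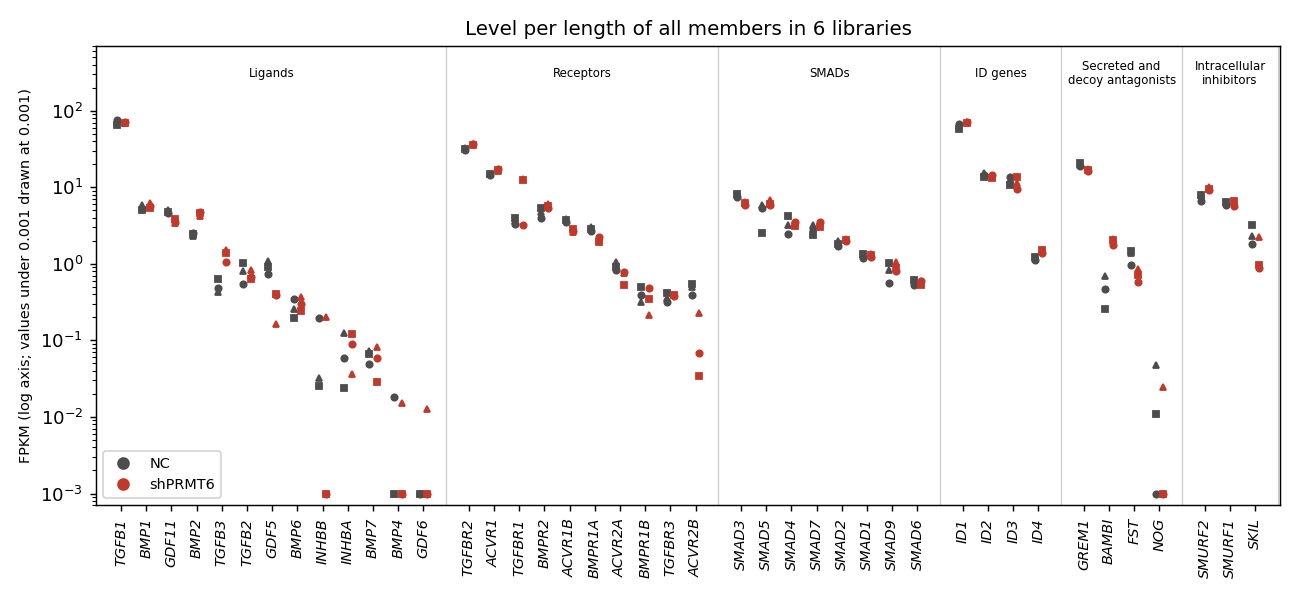
FPKM of all 42 members in each of the 6 libraries (log axis, values under 0.001 drawn at 0.001), grouped by role, with NC in grey and shPRMT6 in red and a marker shape for each replicate number. TGFB1, ID1 and TGFBR2 lie highest, and the libraries of a group differ most in the lowest genes.

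TGFB3 and BMP2 were the 2 ligands that rose, and GDF5 and GDF11 were the 2 that fell. TGFB3, a TGF-beta isoform encoded at chr14:75958099-75982991 (GRCh38, minus strand), had 3.06, 3.97 and 2.64 CPM in NC replicates 1, 2 and 3 and 6.64, 8.58 and 9.45 CPM in shPRMT6. Every shPRMT6 library was above every NC library. Its level in shPRMT6 was 255% of that in NC (log2 fold change 1.35, SE 0.213, adjusted p = 0.00794). BMP2, a BMP ligand at chr20:6767664-6780280 (plus strand), had 10.7, 10.3 and 9.56 CPM in NC and 19.8, 19.1 and 17.7 CPM in shPRMT6. The libraries of each group were close together and the groups were well apart. BMP2 rose to 186% of its NC level (log2 fold change 0.89, SE 0.0963, adjusted p = 0.00227). These calls held in each of the 6 fits with 1 library left out, for TGFB3 as for BMP2.

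GDF5, a BMP-like growth factor best known from joint and cartilage development, lies at chr20:35433347-35454746 (minus strand). It had 2.31, 2.88 and 3.36 CPM in NC and 1.23, 1.25 and 0.517 CPM in shPRMT6. All shPRMT6 libraries were below all NC libraries, and shPRMT6 replicate 3 was the lowest. It fell by 1.52 on the log2 scale (SE 0.371, adjusted p = 0.0347), and the call rested on low counts, between 35 and 219 a library. It was lost without NC replicate 1 (-1.65, adjusted p = 0.0572), NC replicate 2 (-1.51, 0.0752), NC replicate 3 (-1.38, 0.105), shPRMT6 replicate 1 (-1.69, 0.0686) or shPRMT6 replicate 2 (-1.71, 0.0690), and was kept without shPRMT6 replicate 3, which lay more than 2-fold below the other two (-1.1997). Of its exon bases, 35.2% are overlapped by GDF5OS on the opposite strand, and without knowledge of strand in the counting the reads of the 2 genes cannot be told apart.

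GDF11, an activin-like ligand that signals through SMAD2 and SMAD3, lies at chr12:55743280-55757278 (plus strand). It had 48.9, 49.6 and 52.2 CPM in NC and 36.6, 40.7 and 35.3 CPM in shPRMT6. The groups did not overlap, with a log2 fold change of -0.42 (SE 0.0804, adjusted p = 0.0151). The call was lost by a narrow margin without NC replicate 3 (-0.39, adjusted p = 0.0597), shPRMT6 replicate 1 (-0.40, 0.0622) or shPRMT6 replicate 3 (-0.38, 0.0596).

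TGFB1, the main TGF-beta ligand of these cells by level, had 296, 253 and 280 CPM in NC and 276, 264 and 263 CPM in shPRMT6. The groups overlapped, and no change was called (log2 fold change -0.04, 95% interval -0.21 to 0.13, adjusted p = 0.717). TGFB2, a further isoform, was low in both groups, with 3.99, 7.35 and 5.83 CPM in NC and 4.76, 4.58 and 5.88 CPM in shPRMT6, and 26.6% of its exon bases are shared with TGFB2-OT1 on the same strand. BMP1, a protease that cuts procollagens and frees ligands rather than a ligand itself, had 42.6 to 48.2 CPM in NC and 45.4 to 51.4 CPM in shPRMT6. BMP6 and BMP7, both BMP ligands, did not exceed 1.64 and 0.532 CPM in any library. INHBA, which encodes the activin A chain, had between 0.237 and 1.23 CPM. None of these passed the test, and their groups overlapped. INHBB, which encodes the activin B chain, was not tested and had 42, 8 and 8 counts in NC and 0, 0 and 53 counts in shPRMT6, so that 1 library in each group held most of the reads.

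As a share of the summed FPKM of TGFB1, TGFB2 and TGFB3, TGFB3 made up 0.629%, 0.947% and 0.571% in NC and 1.45%, 1.96% and 2.15% in shPRMT6. The mean share was 1.14 percentage points higher in shPRMT6 (two-sided exact permutation p = 0.1, the smallest that 3 libraries against 3 allow). TGFB1 still held 98.2% ± 0.579 of the sum in NC and 97.2% ± 0.477 in shPRMT6 (SD, n = 3). The rise of TGFB3 therefore left TGFB1 as nearly all of the TGF-beta ligand RNA.

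Of the 10 receptors, all of which were tested, TGFBR2 was called higher and the type I receptors ACVR1B and BMPR1A were called lower. TGFBR2, the type II receptor of TGF-beta at chr3:30606502-30694142 (plus strand), had 250, 261 and 261 CPM in NC and 293, 292 and 298 CPM in shPRMT6. The groups did not overlap although the difference was small, with a log2 fold change of 0.19 (SE 0.0485, adjusted p = 0.0371). The value stayed between 0.17 and 0.20 when any library was left out, but the call was lost without NC replicate 1 (adjusted p = 0.0770), NC replicate 3 (0.0869), shPRMT6 replicate 1 (0.114), shPRMT6 replicate 2 (0.117) or shPRMT6 replicate 3 (0.118).

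ACVR1B, a type I receptor of activins that is also called ALK4, lies at chr12:51951667-51997078 (plus strand). It had 24.0, 24.9 and 25.6 CPM in NC and 18.1, 19.2 and 17.6 CPM in shPRMT6. Each group was tight and the groups did not overlap (log2 fold change -0.44, SE 0.0814, adjusted p = 0.0137). The call was lost without NC replicate 3 (-0.42, adjusted p = 0.0518), shPRMT6 replicate 1 (-0.43, 0.0568) or shPRMT6 replicate 3 (-0.41, 0.0596). BMPR1A, a type I receptor of BMPs at chr10:86756601-86932838 (plus strand), had 30.4, 31.9 and 33.5 CPM in NC and 24.8, 21.9 and 24.3 CPM in shPRMT6. These groups were also apart (log2 fold change -0.43, SE 0.0877, adjusted p = 0.0187). Without NC replicate 3 (-0.40, adjusted p = 0.0672), shPRMT6 replicate 2 (-0.38, 0.0719) or shPRMT6 replicate 3 (-0.45, 0.0581) the call was lost. Of the distinct 75-base stretches in BMPR1A transcripts, 8.03% also occur in transcripts of other genes, among them its pseudogenes. Part of its count is therefore uncertain.

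In TGFBR1 and ACVR2B 1 shPRMT6 library stood apart from the other two. TGFBR1, the type I receptor that pairs with TGFBR2, had 27.2, 32.4 and 28.7 CPM in NC and 26.2, 99.6 and 104 CPM in shPRMT6. Replicates 2 and 3 were far above NC while replicate 1 was below every NC library. The log2 fold change of 1.38 (SE 0.476) was not called (adjusted p = 0.0956), and without shPRMT6 replicate 1 it was 1.79 and called (adjusted p = 0.00320). ACVR2B, a type II receptor of activins, had 7.44, 10.3 and 9.26 CPM in NC and 1.29, 0.650 and 4.28 CPM in shPRMT6. All shPRMT6 libraries were below NC, with replicate 3 the highest of them. Its log2 fold change was -2.11 (SE 0.644, adjusted p = 0.0673), and without shPRMT6 replicate 3 it was -3.21 and called (adjusted p = 0.0104). With all libraries it was called by DESeq2 (0.0207) and by limma on log2(FPKM + 1) without a filter (0.0384). The total counts of these libraries were within the range of the others, and what set them apart for these genes was not tested.

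ACVR1, a type I receptor used by BMPs and activins, had 77.1, 80.1 and 77.7 CPM in NC and 91.4, 87.9 and 85.6 CPM in shPRMT6. Every shPRMT6 library was above NC, but the change was not called (log2 fold change 0.17, 95% interval 0.04 to 0.31, adjusted p = 0.0851). DESeq2 called it (adjusted p = 0.00530). BMPR2, the BMP type II receptor, had 60.0, 79.4 and 68.9 CPM in NC and 79.7, 84.0 and 88.5 CPM in shPRMT6. It was not called (0.28, adjusted p = 0.139), but was called without NC replicate 2, the highest of its group (0.38, adjusted p = 0.0401), and by DESeq2 with all libraries (0.0374). ACVR2A, an activin type II receptor, had lower values in every shPRMT6 library and was not called (-0.43, adjusted p = 0.164). BMPR1B, a further BMP type I receptor, and TGFBR3, the coreceptor betaglycan, lay at or below 4.248 CPM in all libraries, and their groups overlapped.

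By FPKM, ACVR1B made up 14.6%, 14.2% and 15.1% of the summed type I receptor members in NC and 10.4%, 8.41% and 7.73% in shPRMT6. The sum was of TGFBR1, ACVR1, ACVR1B, BMPR1A and BMPR1B, without ACVR1C and ACVRL1. The share of BMPR1A was 11.2% ± 0.501 in NC and 6.85% ± 1.49 in shPRMT6 (SD, n = 3). Both differences had an exact permutation p of 0.1, and none of the 25 shares compared could pass 0.05, with or without adjustment. TGFBR1 took 13.7%, 15.3% and 14.03% of that sum in NC and 12.5%, 36.2% and 37.8% in shPRMT6, and the shares of the other receptors in replicates 2 and 3 contain its rise. TGFBR2 held 83.9% ± 1.43 of the summed type II receptor members in NC and 84.9% ± 0.690 in shPRMT6, and these shares overlapped (exact permutation p = 0.4).

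**Figure D3:**
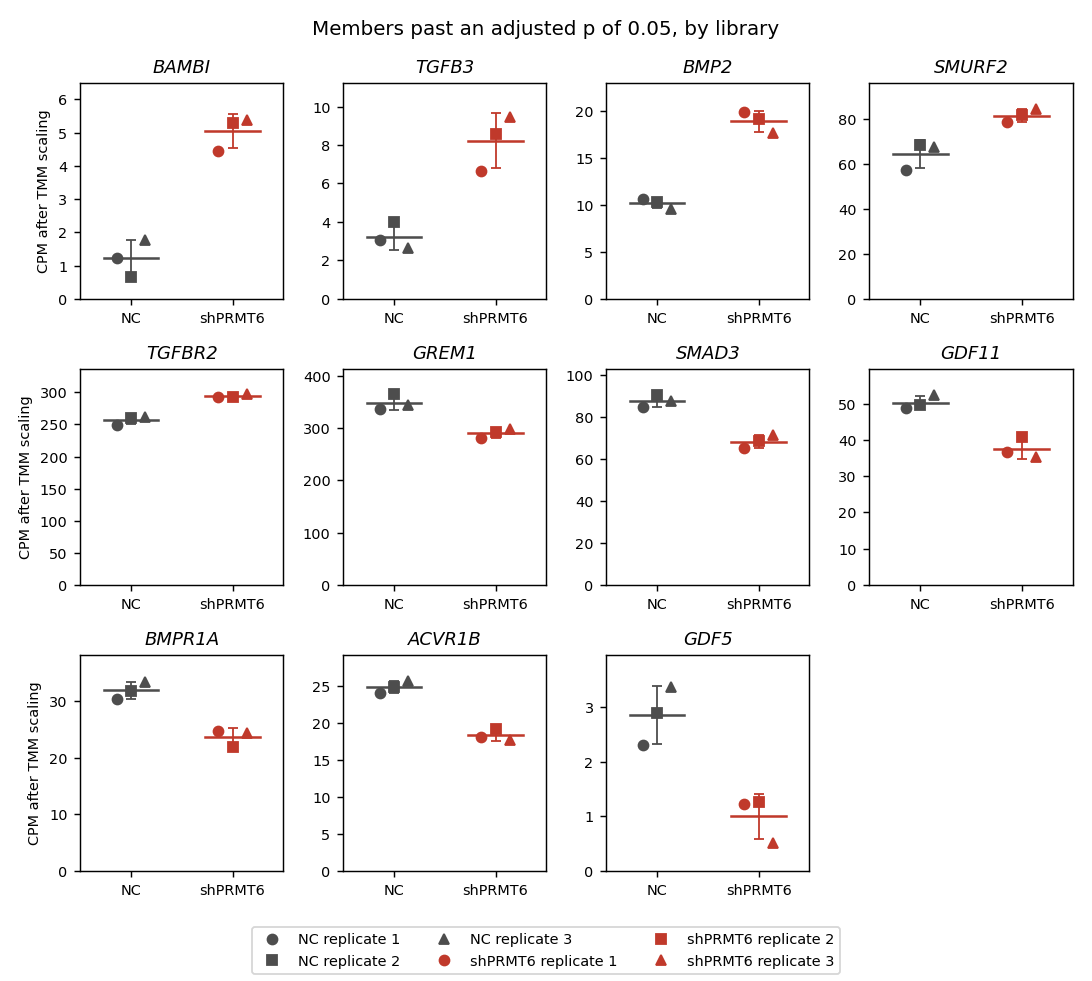
CPM after TMM scaling (y axes from 0) of the 11 members past an adjusted p of 0.05 in each library, with NC in grey and shPRMT6 in red. Marker shapes are the replicates, lines are means and bars are SD over 3 libraries. In all 11 the 3 shPRMT6 libraries lie on 1 side of the 3 NC libraries.

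SMAD3 was the 1 SMAD of 8 that was called. It encodes a receptor SMAD of the TGF-beta and activin branch at chr15:67063763-67195195 (plus strand) and had 84.6, 90.3 and 87.4 CPM in NC and 65.0, 68.4 and 71.1 CPM in shPRMT6. The groups were well separated, with shPRMT6 at 77.9% of NC (log2 fold change -0.36, SE 0.0634, adjusted p = 0.0114). The call was lost by a narrow margin without shPRMT6 replicate 1 (-0.33, adjusted p = 0.0526) or shPRMT6 replicate 2 (-0.36, 0.0518). SMAD2, its close relative in the same branch, had 73.9, 79.3 and 85.1 CPM in NC and 86.2, 88.6 and 90.2 CPM in shPRMT6. Here the shPRMT6 libraries were all higher, but the change was not called (0.15, 95% interval -0.02 to 0.32, adjusted p = 0.187).

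Relative to the summed FPKM of SMAD2 and SMAD3, SMAD3 made up 81.7%, 81.6% and 80.0% in NC and 74.7%, 75.1% and 75.5% in shPRMT6. The share was 6.06 percentage points lower in shPRMT6 (two-sided exact permutation p = 0.1). The level of the share depends on the length by which SMAD2 was divided, with a median over the libraries of 43143 bases in the deposited FPKM. By summed CPM, with no length, the difference was -8.89 points.

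The common partner SMAD4 had 39.0, 66.4 and 50.2 CPM in NC and 54.1, 49.1 and 52.1 CPM in shPRMT6, so that the NC libraries spanned the shPRMT6 libraries. SMAD5, of the BMP branch, had 58.5, 26.8 and 61.6 CPM in NC and 61.8, 65.4 and 73.4 CPM in shPRMT6. NC replicate 2 was the low library, and the change was not called with it (0.45, adjusted p = 0.351) or without it (0.15). SMAD1 and SMAD9, of the same branch, and the inhibitory SMAD6 had log2 fold changes of -0.01, 0.18 and -0.02 with groups that overlapped. SMAD7, the inhibitory SMAD that TGF-beta itself induces, had 17.0, 14.4 and 18.9 CPM in NC and 21.1, 18.1 and 20.5 CPM in shPRMT6 and was not called (0.24, adjusted p = 0.239).

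None of the 4 ID genes, the usual readout of BMP signalling, was called by edgeR, DESeq2 or limma, and none had an unadjusted p under 0.05. ID1 had 98.9, 85.3 and 92.7 CPM in NC and 103, 100.2 and 103 CPM in shPRMT6. Its groups did not overlap, but the change was small (log2 fold change 0.14, 95% interval -0.03 to 0.31, adjusted p = 0.219). ID2 had 38.4, 36.2 and 40.5 CPM in NC and 38.3, 34.6 and 36.9 CPM in shPRMT6, and its groups overlapped (-0.07, 95% interval -0.26 to 0.12, adjusted p = 0.611). ID3 had a log2 fold change of -0.09 (95% interval -0.47 to 0.29). ID4 was higher in every shPRMT6 library without being called (0.27, 95% interval -0.0011 to 0.55, adjusted p = 0.154). ID1 made up 69.2% ± 0.528 of the summed FPKM of the ID genes in NC and 72.1% ± 1.34 in shPRMT6 (SD, n = 3).

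BAMBI rose and GREM1 fell among the antagonists. BAMBI, a membrane protein shaped like a type I receptor without a kinase that dampens TGF-beta and BMP signals, lies at chr10:28677342-28682939 (plus strand), just after the stretch shown above. It had 1.23, 0.658 and 1.76 CPM in NC and 4.45, 5.28 and 5.37 CPM in shPRMT6. Every shPRMT6 library exceeded the highest NC library by more than a 2-fold margin. BAMBI reached 413% of its NC level, with a log2 fold change of 2.05 (SE 0.355, adjusted p = 0.0107), from counts of 50 to 110 in NC and 283 to 364 in shPRMT6. It was called in each of the 6 fits with 1 library left out.

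GREM1, a secreted BMP antagonist at chr15:32717974-32745107 (plus strand), had 337, 364 and 344 CPM in NC and 281, 293 and 299 CPM in shPRMT6. The groups did not overlap, and the fall was small (log2 fold change -0.26, SE 0.0557, adjusted p = 0.0225). The call was lost without NC replicate 3 (-0.27, adjusted p = 0.0633), shPRMT6 replicate 1 (-0.23, 0.0908), shPRMT6 replicate 2 (-0.27, 0.0797) or shPRMT6 replicate 3 (-0.28, 0.0616). FST, which encodes the activin-binding protein follistatin, had 3.24, 4.80 and 4.53 CPM in NC and 1.92, 2.32 and 2.83 CPM in shPRMT6. It was lower in all shPRMT6 libraries and lay just outside the threshold (-0.83, SE 0.230, adjusted p = 0.0513). It was called without NC replicate 1 (-0.99, adjusted p = 0.0402), with DESeq2 (0.00266), with upper quartile factors (0.0488) and with at least 10 counts in every library (0.0431). NOG, the BMP antagonist noggin, was not tested, with at most 7 counts in a library.

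Among the intracellular inhibitors, SMURF2 was called higher. SMURF2 encodes a ubiquitin ligase that marks receptors and SMADs for degradation and lies at chr17:64542295-64662068 (minus strand). It had 57.3, 68.4 and 67.7 CPM in NC and 78.8, 81.7 and 84.5 CPM in shPRMT6. The groups did not overlap, with NC replicate 1 the lowest library (log2 fold change 0.34, SE 0.0857, adjusted p = 0.0375). The call was lost without NC replicate 1 (0.26, adjusted p = 0.0515), NC replicate 3 (0.38, 0.0748), shPRMT6 replicate 1 (0.37, 0.0842), shPRMT6 replicate 2 (0.34, 0.111) or shPRMT6 replicate 3 (0.32, 0.115).

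Its paralog SMURF1 had 44.4, 47.6 and 47.1 CPM in NC and 41.6, 49.2 and 47.3 CPM in shPRMT6, which overlapped (log2 fold change -0.01, 95% interval -0.22 to 0.19). SKIL, which encodes the SMAD corepressor SnoN, had 16.9, 30.0 and 21.3 CPM in NC and 8.12, 9.002 and 20.9 CPM in shPRMT6. Replicate 3 of shPRMT6 was within the NC range while the other two were below it. The change was not called (-0.84, adjusted p = 0.204), and was called without that library (-1.41, adjusted p = 0.0316).

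**Figure D4:**
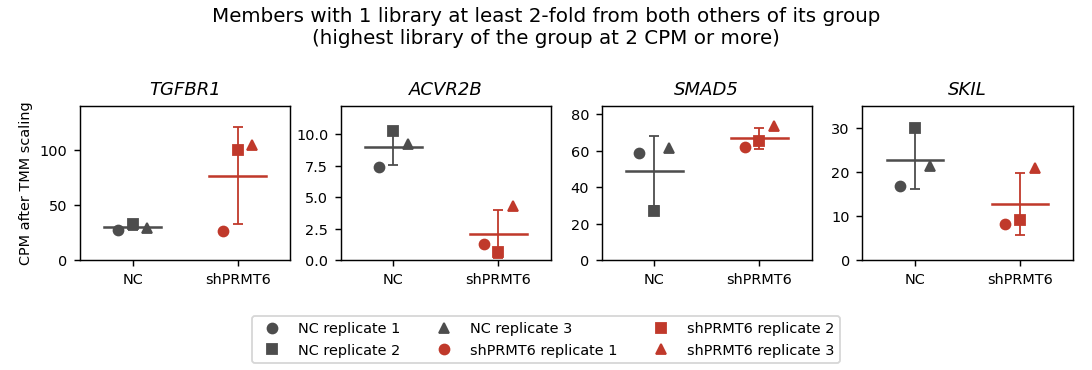
CPM after TMM scaling (y axes from 0) of TGFBR1, ACVR2B, SMAD5 and SKIL in each library, the 4 members in which 1 library lay at least 2-fold from both others of a group whose highest library had 2 CPM or more. Lines are means and bars SD over 3 libraries, and the marker shapes show shPRMT6 replicate 1 low in TGFBR1, shPRMT6 replicate 3 high in ACVR2B and SKIL, and NC replicate 2 low in SMAD5.

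Where the highest library of the group had at least 2 CPM, a library at least 2-fold from both others was seen in these 4 of 38 tested members and in 5.83% of all tested genes. None of the 11 called members was among these 4. Below 2 CPM, INHBA, BMP7 and the called GDF5 also had such a library, in GDF5 shPRMT6 replicate 3 at 0.517 CPM. With the threshold of the study's methods, an absolute log2 fold change above 1 with an unadjusted p under 0.05, TGFB3, BAMBI and TGFBR1 were higher and GDF5 and ACVR2B were lower. These were 3 and 2 of 38 members, against 596 and 476 of the 18106 tested genes (3.29% and 2.63%). Groups that did not overlap were found in 11 members with higher and 9 members with lower values in shPRMT6, against 20.3% and 19.9% of all tested genes.

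Other genes of the same pathways were counted in 105 further genes chosen by role, of which 70 were tested, 10 were called higher and 10 were called lower. Their calls made up 28.6% of those tested, against 18.6% of all tested genes. Among 11 genes of the latent complex and its activation, 10 were tested, 3 were called higher and 1 lower. LTBP1, which tethers latent TGF-beta to the matrix, had 190, 221 and 229 CPM in NC and 476, 468 and 494 CPM in shPRMT6. The groups were far apart (log2 fold change 1.17, SE 0.0808, adjusted p = 0.00066). NRROS, which tethers latent TGF-beta on cell surfaces (0.97), and FURIN, the protease that cuts the TGF-beta propeptide (0.24), were also called higher, while LTBP4 was called lower (-0.56). The FURIN call was lost when any 1 of the 6 libraries was left out (adjusted p from 0.0563 to 0.146), and the NRROS call was kept without NC replicate 2 and lost without any of the others (0.0548 to 0.0721).

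Of 14 further antagonists, 8 were tested, and CHRDL1, a chordin-like BMP antagonist, was called higher (log2 fold change 1.72) and FSTL1, a follistatin-like secreted protein, lower. The CHRDL1 call was kept without NC replicate 3, and was lost without any other library (adjusted p from 0.0700 to 0.135) and without scaling factors (0.0516). FSTL1 had 372, 388 and 376 CPM in NC and 143, 152 and 150.4 CPM in shPRMT6. Its shPRMT6 level was 39.2% of that in NC (-1.35, SE 0.0522, adjusted p = 0.000175). All 17 further intracellular regulators were tested, with PMEPA1, a TGF-beta-induced inhibitor of receptor SMADs (0.69), the ubiquitin ligase WWP1 (0.47) and the deubiquitinase USP15 (0.24) called higher and the SMAD corepressor TGIF1 (-0.51) called lower. The USP15 call was lost when any 1 library was left out (adjusted p from 0.0526 to 0.143). Of 21 further ligands 5 were tested and INHBE was called lower (-0.67), and of 8 further receptors 3 were tested and the BMP coreceptor RGMB was called lower (-0.50). The INHBE call was lost when any 1 library was left out (adjusted p from 0.0801 to 0.106). Of the distinct 75-base stretches in RGMB transcripts, 42.4% also occur, on either strand, in transcripts of other genes, among them RGMB-AS1. Its count is therefore uncertain.

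Genes known to respond to TGF-beta moved in both directions. Of 24 such genes 20 were tested, 3 were called higher and 4 lower, against 9.51% and 9.06% of all tested genes. FN1 (fibronectin, -0.72) and CDKN1A (the cell cycle inhibitor p21, -0.69) were among those called lower. The collagen gene COL1A2 (0.33), the transcription factor gene BHLHE40 (0.33) and the gelatinase gene MMP2 (0.30) were called higher. Of 10 genes known to respond to BMPs besides the ID genes, 7 were tested, and the homeobox gene DLX1 was the 1 called, with a lower level (-0.52). This call was kept without shPRMT6 replicate 2 and lost without any other library (adjusted p from 0.0726 to 0.115).

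**Figure D5:**
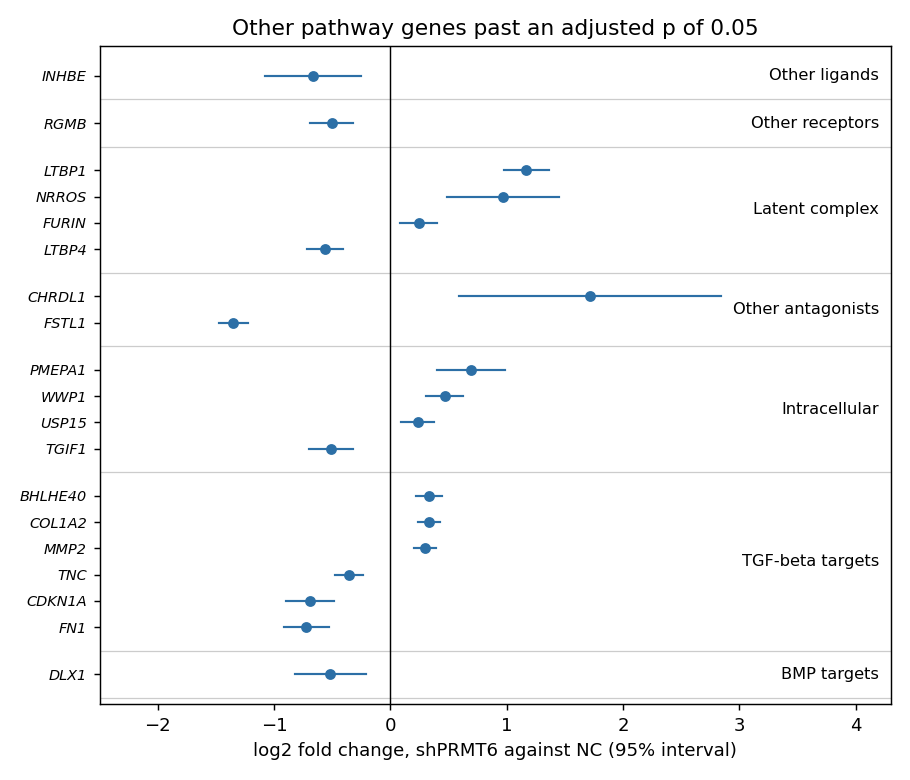
Log2 fold change (x axis, shPRMT6 against NC, with the 95% interval) of 19 of the 20 called genes among the 105 further genes of the same pathways, grouped by role. LTBP1 at 1.17 and FSTL1 at -1.35 have narrow intervals, and genes known to respond to TGF-beta lie on both sides of 0.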

How the data were processed

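The data were RNA sequencing libraries of U87 cells made with the NEBNext Ultra kit, 3 for each group, and the groups were read from the labels. The authors deposited raw counts per gene and FPKM values, and wrote 0.0001 FPKM for a gene without counts. The submitters' processing notes name HISAT2, HTSeq 0.13.5 and GRCh38. The annotation release and the use of strand in counting are not given in the sources used here. FPKM followed counts divided by a length, but the length implied for a gene was not exactly the same in each library. Shares of summed FPKM carry these differences.

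Counts were tested with edgeR 4.0.16 in R 4.3.3 (quasi-likelihood test after TMM scaling and filterByExpr, with Benjamini-Hochberg adjustment over 18106 genes), without a replicate block. Shares of summed FPKM were compared by two-sided exact permutation tests in SciPy 1.17.1. Errors are SE or SD over 3 libraries. The SE was derived from the log2 fold change and the F statistic of the quasi-likelihood test, and the 95% intervals from this SE. Replicates in a group differed beyond counting error (chi-square of 48.2 to 78.4 per degree of freedom). Gene positions, exon overlaps and 75-base stretches came from GENCODE 29 on GRCh38 and promoters from RefSeq. Alternatives used DESeq2 1.42.0 and limma 3.58.1. The programs were run on simulated data in which every gene had the same dispersion, so that run does not describe genes with a library apart. Members past the threshold and the 6 with the highest mean FPKM are given by library, and up to 3 rises and 3 falls per list of other genes are named. The members and lists were chosen with earlier results of these data known. Genes GDF6, NOG, BMP1, BMP2 and BMP7 had no promoter entry. The values of 1 further pathway gene are not reported here.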

Additional observations from a re-analysis of the deposited data

How the results depend on the processing

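All 11 called members kept their call with DESeq2, upper quartile factors, no scaling factors or at least 10 counts in every library, and 9 of 11 kept it with at least 1 count in any library, where 3 members were higher, and with limma without a filter. DESeq2 called 7 members higher and 8 lower, adding ACVR1, BMPR2, ACVR2B and FST. BMP2 and BAMBI were called under all 15 alternatives across genes, and TGFB3 under the 13 in which it was tested. Each library left out in turn gave 3 to 6 members called higher and 1 to 6 called lower, 6 to 7 other pathway genes called higher, and a PRMT6 log2 fold change from -1.0004 to -0.73. With limma on log2(FPKM + 1), log2(FPKM + 0.1) and log2(FPKM + 1) without a filter, 1 member was higher and 0 were lower by the threshold of the methods. The filter left 25 members, without TGFB3, GDF5 and ACVR2B, and log2(FPKM + 1) understates changes of low genes. Without the filter PRMT6 was at -0.47 (adjusted p = 0.0578). Over all genes, 3362 were called by edgeR, 5782 by DESeq2 and 1755 to 3183 without 1 library.

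Deviations of same-numbered libraries correlated at -0.0248, -0.0171 and -0.0301, and those of differently numbered libraries at -0.0195 to 0.0449. These correlations over all tested genes showed no pairing by number, but a pairing in part of the genes was not tested. With a replicate block, 1858 genes, 3 members higher (BAMBI, BMP2, TGFB3), 1 lower (SMAD3) and 6 other pathway genes higher were called, and PRMT6 was at -0.88 (adjusted p = 0.0803).

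By summed CPM the TGFB3 share differed by 1.79 and the SMAD3 share by -8.89 points; these drop the division by length. By the exon union of GENCODE 29, added after seeing the data, the differences were 1.203 and -5.99. A count without the 4 members with a library apart at 2 CPM or more was also added after seeing the data. None of the 4 was called in that same fit, so this count could not differ and tests nothing.

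No called member changed direction. Members near 0 did. SMAD1 was at 0.00032 with log2(FPKM + 0.1). SMAD4 was at 0.0011 with DESeq2, 0.0016 with at least 1 count, 0.030 with the replicate block, 0.023 with log2(FPKM + 1) with and without the filter, and 0.036 with log2(FPKM + 0.1). With each library left out, TGFB1 ran from -0.11 to 0.0047, TGFB2 from -0.38 to 0.046, INHBA from -0.14 to 1.01, BMP7 from -0.52 to 0.13, TGFBR3 from -0.0057 to 0.19, BMPR1B from -0.51 to 0.047, SMAD1 from -0.065 to 0.026, SMAD4 from -0.17 to 0.21, SMAD6 from -0.090 to 0.035, SMAD9 from -0.021 to 0.38, ID3 from -0.23 to 0.035 and SMURF1 from -0.061 to 0.056. Why these settings moved the values was not tested.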
